A study of Homo sapiens with 6 samples.

Results

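The mitochondrial ribosomal proteins are the nuclear-encoded proteins of the ribosome that works inside mitochondria. Their genes were taken as the protein-coding rows of the deposited gene table whose symbol is MRPL or MRPS followed by a number and, in some, 1 letter, which gave 78 rows of the 29845 genes in the table and of its 17080 protein-coding genes. Of these, 48 rows carry an MRPL symbol (large subunit) and 30 an MRPS symbol (small subunit). The 78 rows have 77 distinct symbols, because MRPS17 stands on 2 rows. The RNA came from the A549 cell line, which was established from a human lung carcinoma and is epithelial, transfected with the plasmid pIRES-hrGFP-1a carrying FLAG-tagged TFAM (TFAM-OE) or with the empty plasmid (control). Both groups therefore received a plasmid and the transfection reagent, and as no selection of the transfected cells is described, cells that took up the plasmid were measured with those that did not. Polyadenylated RNA was sequenced in 3 biological replicates per group, and a library held between 26650854 and 37321956 counted reads.

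Mitochondrial ribosomes translate the few proteins that mitochondrial DNA encodes, all of them subunits of the respiratory chain and the ATP synthase. Their rRNAs are transcribed from mitochondrial DNA, whereas every one of their proteins is encoded in the nucleus, made in the cytosol and imported, so that the particle needs products of both genomes. TFAM, the protein expressed from the plasmid, packages mitochondrial DNA and is needed for its transcription. Some of the proteins are homologues of bacterial ribosomal proteins, and the others were added in the mitochondrial lineage. Symbol and position do not always go together, since the proteins named MRPS30 and MRPS18A sit in the large subunit, and MRPS36 is a component of the 2-oxoglutarate dehydrogenase complex and is not a ribosomal protein. The comparison of TFAM-OE with the control asks whether the mRNAs of the nuclear share of this machine differed when TFAM was added.

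The promoters of 69 of the 77 symbols were found in RefSeq (GRCh38.p14), as the 250 bases before and the 50 bases after the annotated start. They held short sequences that are recognised by ETS-family factors such as GABPA, by YY1 and by NRF1, factors known for their place in the expression of nuclear genes of mitochondria. The letters CCGGAAG (ETS-type) were present on either strand in 28 of the 69 promoters (40.6%), compared with 10.7% of all 27305 promoters in the same reference and 15.9% of the 12544 promoters of protein-coding genes. The letters AAGATGG (YY1-type) were present in 23 (33.3%), compared with 6.06% of all promoters and 6.65% of the protein-coding ones. The NRF1-type motif, which reads GCGCA, any base and GCGC, was present in 8 (11.6%), compared with 6.28% and 9.66%. At least 1 of these motifs was found in 46 promoters (66.7%), compared with 20.5% of all promoters and 28.1% of the protein-coding ones. By contrast, the CCAAT letters were present in 29.0% of the members' promoters, against 35.7% of all promoters and 36% of the protein-coding ones. TATAAA was present in only 3 members (4.35%), against 12% and 7.2%. The GGGCGG letters of SP1-type sites were present in 60.9%, against 44.6% of all promoters and 64.8% of the protein-coding ones. A match of letters is a description and does not show binding. Of the members whose levels are described below, the 5 of each subunit with the largest differences between the groups included 7 whose promoters hold 1 of the first 3 motifs, and these are printed 5′ to 3′ on the gene's own strand, with the motif letters, or their reverse complement, in capitals.
MRPL14, chr6:44127259-44127558, minus strand: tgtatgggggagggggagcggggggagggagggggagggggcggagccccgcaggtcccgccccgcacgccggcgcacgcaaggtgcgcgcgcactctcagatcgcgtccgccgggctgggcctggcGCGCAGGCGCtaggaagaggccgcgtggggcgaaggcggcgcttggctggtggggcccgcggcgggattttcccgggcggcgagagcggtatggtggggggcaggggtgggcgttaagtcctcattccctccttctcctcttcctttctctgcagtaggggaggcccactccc
MRPL30, chr2:99180934-99181233, plus strand: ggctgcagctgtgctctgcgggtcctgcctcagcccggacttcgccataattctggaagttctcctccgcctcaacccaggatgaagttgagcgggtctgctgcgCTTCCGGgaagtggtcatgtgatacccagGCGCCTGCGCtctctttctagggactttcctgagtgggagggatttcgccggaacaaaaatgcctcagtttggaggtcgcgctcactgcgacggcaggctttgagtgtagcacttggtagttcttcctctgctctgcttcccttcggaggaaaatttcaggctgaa
MRPL16, chr11:59810729-59811028, minus strand: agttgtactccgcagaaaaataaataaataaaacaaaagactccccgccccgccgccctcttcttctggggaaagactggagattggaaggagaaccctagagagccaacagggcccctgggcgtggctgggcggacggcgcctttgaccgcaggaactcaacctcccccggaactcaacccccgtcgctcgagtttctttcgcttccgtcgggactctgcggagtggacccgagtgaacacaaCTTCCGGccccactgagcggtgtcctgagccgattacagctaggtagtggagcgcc
MRPS16, chr10:73252595-73252894, minus strand: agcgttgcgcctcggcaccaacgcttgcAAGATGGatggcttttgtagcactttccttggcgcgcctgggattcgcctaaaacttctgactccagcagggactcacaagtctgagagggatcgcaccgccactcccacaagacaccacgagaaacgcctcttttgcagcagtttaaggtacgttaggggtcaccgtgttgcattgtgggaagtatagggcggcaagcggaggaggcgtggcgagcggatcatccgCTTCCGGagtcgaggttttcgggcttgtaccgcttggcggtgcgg
MRPS21, chr1:150293611-150293910, plus strand: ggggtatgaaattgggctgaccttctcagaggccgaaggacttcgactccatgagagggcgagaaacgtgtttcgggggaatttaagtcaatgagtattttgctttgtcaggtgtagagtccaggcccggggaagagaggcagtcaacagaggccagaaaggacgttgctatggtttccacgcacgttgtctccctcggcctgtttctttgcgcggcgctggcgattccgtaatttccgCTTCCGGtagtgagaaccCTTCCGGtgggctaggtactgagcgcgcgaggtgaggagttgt
MRPS34, chr16:1773085-1773384, minus strand: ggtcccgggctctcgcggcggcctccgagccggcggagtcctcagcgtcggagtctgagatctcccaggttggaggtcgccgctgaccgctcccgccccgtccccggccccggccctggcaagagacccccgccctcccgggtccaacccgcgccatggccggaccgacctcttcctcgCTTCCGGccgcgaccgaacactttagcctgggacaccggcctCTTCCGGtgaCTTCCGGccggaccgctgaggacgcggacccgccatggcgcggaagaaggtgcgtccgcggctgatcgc
MRPS30, chr5:44808697-44808996, plus strand: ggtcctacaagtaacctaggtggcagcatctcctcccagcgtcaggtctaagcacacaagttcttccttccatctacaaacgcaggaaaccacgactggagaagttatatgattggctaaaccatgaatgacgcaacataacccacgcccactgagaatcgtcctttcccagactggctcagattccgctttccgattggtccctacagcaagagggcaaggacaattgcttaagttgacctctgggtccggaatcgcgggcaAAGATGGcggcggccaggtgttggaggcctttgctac
In MRPL14 the capitals mark an NRF1-type match, and in MRPL30 an ETS-type match on the reverse strand followed by an NRF1-type match. MRPL16, MRPS21 and MRPS34 hold ETS-type letters on the reverse strand, which occur at 3 places in MRPS34. MRPS16 holds a YY1-type match far from its start and an ETS-type match just after it. The AAGATGG of MRPS30 lies just after the start. None of the 3 motifs was found in the promoters of MRPL55, MRPL41 or MRPS6, which hold GGGCGG letters at several places, and none of the 6 motifs searched was found in that of MRPL12. The median log2 fold change of the members with the ETS-type letters was 0.081 and that of the others 0.017. With and without the NRF1-type letters the medians were 0.12 and 0.041, and with and without the YY1-type letters they were -0.041 and 0.084, against a median of -0.0084 over all 16555 genes tested.

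All 78 members were expressed, with between 199 and 13738 reads in a library, and all passed the filter on low counts. Their levels were compared between genes as FPKM, which corrects for gene length. The mean FPKM over the 6 libraries ran from 3.15 in MRPL42 to 275 in MRPL12, an 87.1-fold range, and 64 of the 78 members were between 10 and 100. The median was 44.9 FPKM for the large subunit and 35.4 FPKM for the small subunit. Members homologous to bacterial ribosomal proteins (47 rows) had a median of 40.9 FPKM and mitochondria-specific members (30 rows, without MRPS36) a median of 33.8 FPKM.

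MRPL12, which forms the flexible stalk that recruits translation factors, was the most abundant member. Its FPKM was 218, 283 and 288 in the control replicates and 312, 306 and 242 in the TFAM-OE replicates. MRPL33 followed with 171 ± 13.3 FPKM (SD, n = 3) in the control and 187 ± 13.9 FPKM (SD, n = 3) in TFAM-OE, and MRPL24 with 117 ± 16.2 and 135 ± 23.9 FPKM. In the small subunit the highest levels were those of MRPS24 (178 ± 18.9 and 177 ± 23.9 FPKM), MRPS34 (144 ± 15.6 and 168 ± 23.7 FPKM) and MRPS12, a protein of the decoding site (146 ± 10.7 and 148 ± 19.4 FPKM). MRPS26 was the other member above 100 FPKM. The lowest levels in the large subunit were those of MRPL42 (3.21 ± 0.260 and 3.10 ± 0.168 FPKM), MRPL50 (8.34 ± 0.599 and 7.62 ± 0.150 FPKM) and MRPL48 (8.24 ± 0.377 and 8.40 ± 0.831 FPKM). In the small subunit they were those of MRPS17 (ENSG00000239789.5, 3.44 ± 0.322 and 3.42 ± 0.252 FPKM), MRPS25 (9.03 ± 0.330 and 9.67 ± 0.686 FPKM) and MRPS33 (9.65 ± 0.890 and 9.79 ± 0.845 FPKM).

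**Figure D1:**
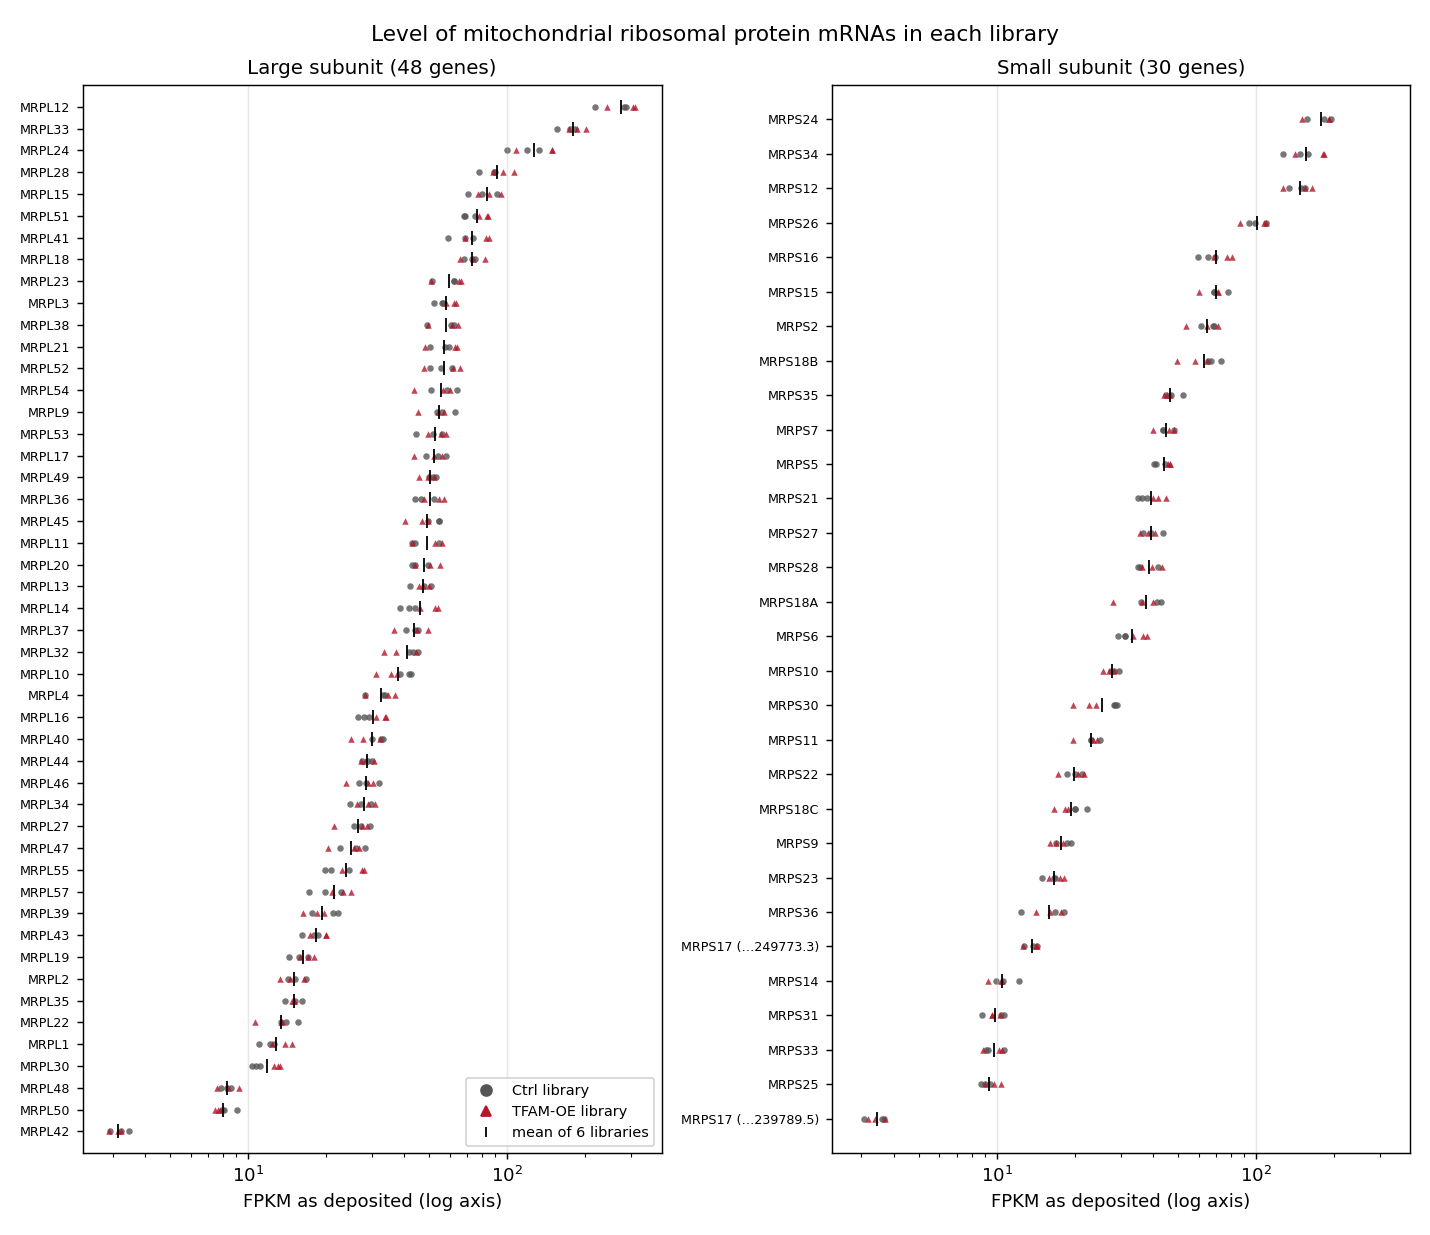
Deposited FPKM (log axis) of each member in each library, for the large subunit (left, 48 genes) and the small subunit (right, 30 genes), in order of the mean over 6 libraries (black tick); grey circles are control libraries and red triangles TFAM-OE libraries. The libraries of 1 gene lie close together beside the range from 3.15 FPKM (MRPL42) to 275 FPKM (MRPL12), and grey and red points overlap in most rows.

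The order of the levels is a sequence of close neighbours. Of the 77 pairs of members next to each other in the order, only 2 had ranges over the 6 libraries that did not overlap, MRPL12 above MRPL33 and MRPL50 above MRPS17 (ENSG00000239789.5). The order also depends on the gene length behind the FPKM. The length implied by the counts and the FPKM was 18894 bases for MRPL42, whose canonical transcript in GENCODE version 44 is itself 15557 bases long, while for MRPL27 it was 3313 bases against a canonical transcript of 686 bases. Per kilobase of the canonical transcript, MRPL12, MRPS12, MRPS24, MRPL33 and MRPS34 had the highest values and MRPL42 again the lowest, and MRPL27 moved from rank 51 to rank 12. Both lengths of MRPL42 are long beside the members' median canonical transcript of 1287.5 bases, so its 2 low values are not independent. The Spearman rank correlation of the 2 scales over the 78 members was 0.905.

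Several members share their DNA with other genes. In GENCODE version 44, 25 members overlap another gene on the same strand and 40 overlap one on the opposite strand, and 28 overlap neither. Whether the counting used strand is not given in the sources used here, and reads of overlapping genes may have been assigned to either. The 2 rows of MRPS17 lie on chromosome 7, from 55951877 to 55956500 (ENSG00000239789.5) and from 55887277 to 55955239 (ENSG00000249773.3), and overlap each other and NIPSNAP2, so the split of reads between them is uncertain. ENSG00000249773.3 has no gene symbol in GENCODE version 44, but both rows are counted as members here by their deposited symbol. For 17 members (21.8%, 14 of them in the large subunit), the start of another protein-coding gene lies head to head within 1000 bases, compared with 11.1% of 13377 protein-coding genes. MRPL46 and MRPS11 on chromosome 15 are such a pair, with starts 63 bases apart. Over these 17 members the median log2 fold change was -0.045 and over their partner genes 0.0024, and 9 of the 17 pairs had the same sign.

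The TFAM gene itself was counted at 76.1, 70.2 and 72.7 CPM (read counts scaled to a common library size by TMM) in the control replicates and at 71.9, 77.3 and 83.0 CPM in the TFAM-OE replicates, so that the ranges of the groups overlapped. Its log2 fold change (TFAM-OE over control) was 0.085 with a standard error of 0.096 (adjusted p = 0.623, edgeR quasi-likelihood test over 16555 genes), so TFAM mRNA did not separate the labelled groups. With offsets for GC content and transcript length it was 0.27 (adjusted p = 0.032 in edgeR). By western blot against the FLAG tag, the authors reported TFAM overexpression, which is a measure of protein and not of mRNA. The groups are named below by their labels. The interferon-stimulated genes ISG15, IFIT1 and OAS2, which separate the groups, had log2 fold changes of -2.72, -2.55 and -3.45. The epithelial keratins KRT8, KRT18 and KRT19 were between 79.97 and 743 FPKM in every library, whereas the epithelial surface markers EPCAM and CDH1 were between 0.14 and 1.48 FPKM, and of the markers of other cells the fibroblast gene COL1A1 was at most 0.63 FPKM, with PECAM1, VWF, COL3A1 and SFTPC at or below 0.09 FPKM.

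No member passed the threshold of an adjusted p below 0.05 in the comparison of TFAM-OE with the control, with 0 of 78 higher and 0 of 78 lower (edgeR). Of all 16555 genes tested, 3.48% were called higher and 4.81% lower. With a fold of at least 2 required as well, 2.51% of all genes were called in either direction and again 0 members. At an unadjusted p below 0.05, 6 of 78 members were higher, beside 12.2% of all genes, and 1 was lower, beside 13.2% of all genes, so both shares were below the background. In RNA of whole cultures, fewer cells that respond and a smaller response per cell cannot be told apart. DESeq2 also called 0 members, beside 5.64% of all genes higher and 6.68% lower in that test. The point estimates were positive for 50 members and negative for 28, and they ran from -0.35 in MRPS30 to 0.33 in MRPL14 on the log2 scale, that is from a fold of 0.786 to one of 1.25. The medians were 0.086 over the large subunit and 0.020 over the small subunit, compared with -0.0084 over all genes tested.

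These intervals were narrow. The 95% interval of the fold lay wholly within 1.5-fold in either direction for 74 of the 78 members (45 of 48 in the large subunit and 29 of 30 in the small subunit) and within 2-fold for all 78. Among all 16555 genes tested, 8085 had intervals within 1.5-fold and 13159 within 2-fold. Those genes were less abundant, with a median of 3.39 FPKM against 38.9 FPKM over the members. Of the 79 cytosolic ribosomal protein genes tested, 78 also had intervals within 1.5-fold. The groups did not overlap for 3 members, with MRPL30 and MRPS6 higher in every TFAM-OE library and MRPS30 lower in every one. These are 3.85% of the members, whereas 15.8% of all genes tested were separated upwards and 15.8% downwards.

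**Figure D2:**
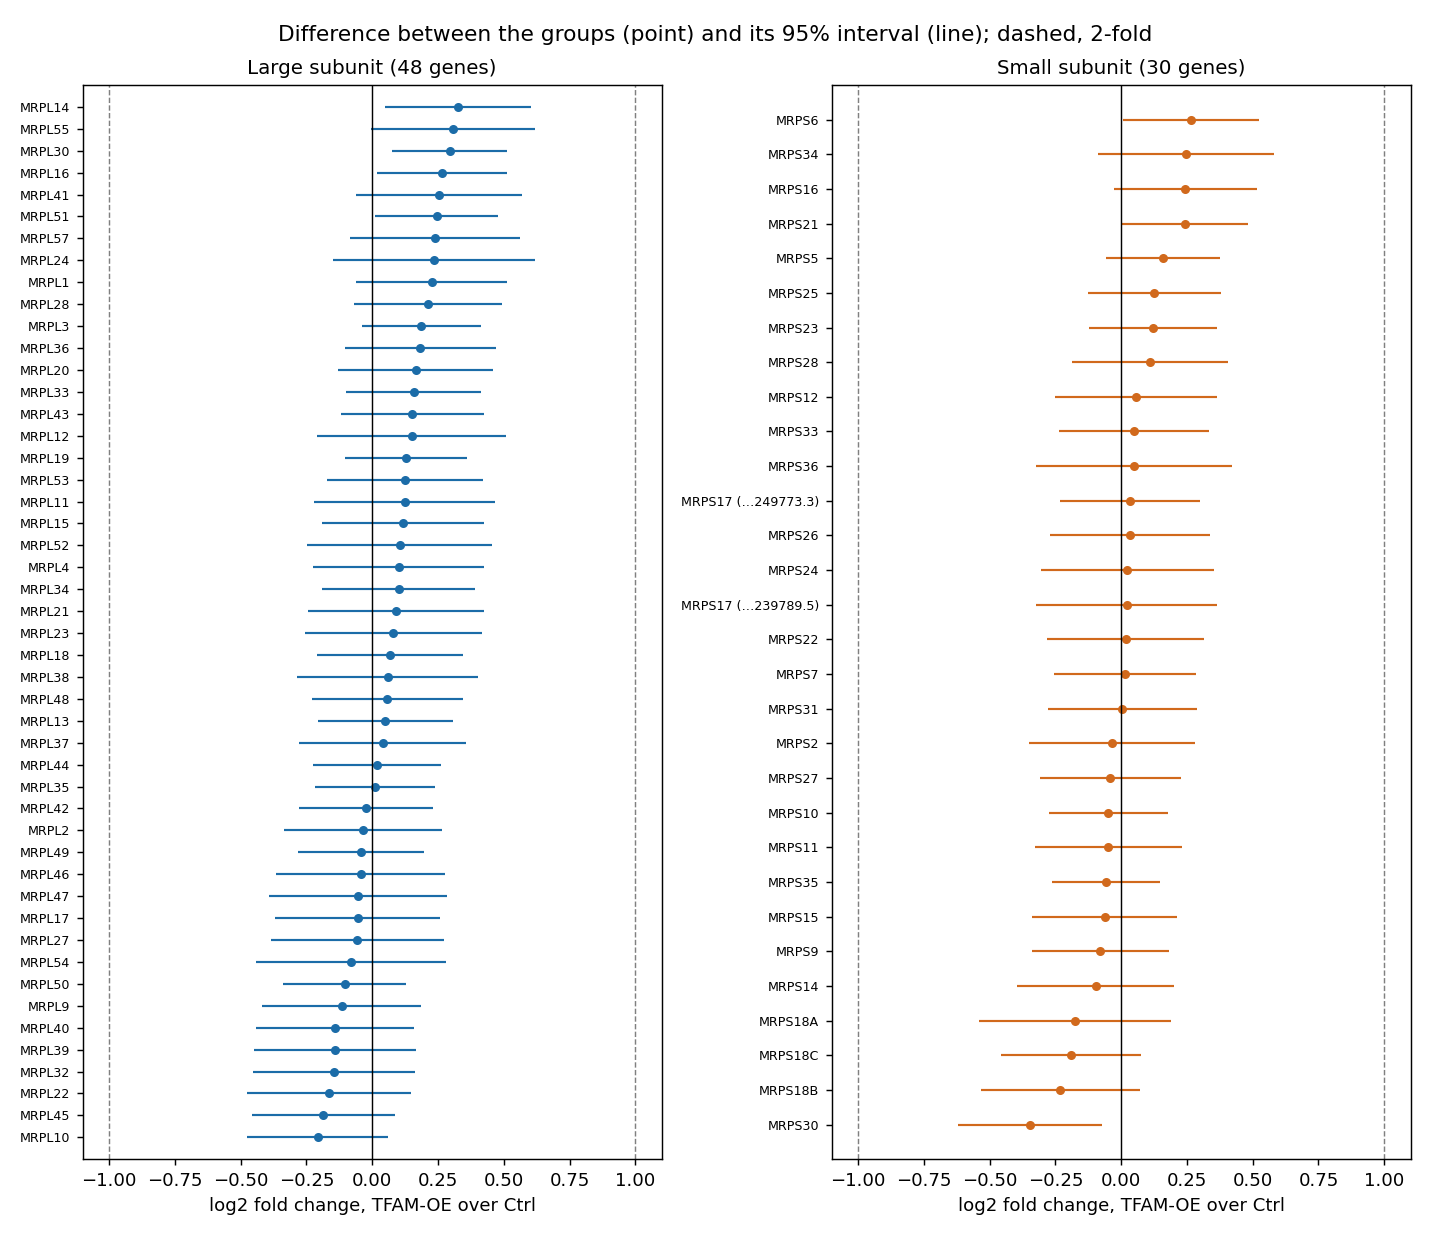
Log2 fold change of TFAM-OE over control for each member (point) with its 95% interval (line) from the edgeR fit, for the large subunit (left) and the small subunit (right); dashed lines mark a 2-fold difference. All 78 intervals lie between the dashed lines, and 7 of them do not cross 0, those of MRPL14, MRPL30, MRPL16, MRPL51, MRPS6 and MRPS21 above it and that of MRPS30 below it.

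MRPL30 had the smallest p of the members. Its levels were 34.1, 36.8 and 34.8 CPM in the control replicates and 44.1, 44.5 and 41.0 CPM in the TFAM-OE replicates. Every TFAM-OE library was above every control library, the log2 fold change was 0.29 (standard error 0.098, fold 1.23 with a 95% interval from 1.05 to 1.43), and the adjusted p was 0.092. The gene lies on chromosome 2 (99181152 to 99199561, plus strand) and encodes a large-subunit protein of bacterial type, and its promoter, printed above, holds both ETS-type and NRF1-type letters. MRPL30 was among the less abundant members, with 11.9 FPKM on average, and it overlaps other annotated genes on its own strand, so some of its reads may be theirs.

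MRPL14, another large-subunit protein of bacterial type, had the largest positive difference. It was at 42.0, 47.3 and 50.7 CPM in the control and at 64.8, 60.9 and 49.8 CPM in TFAM-OE. TFAM-OE replicates 1 and 2 were above all controls and replicate 3 lay within their range. The log2 fold change was 0.33 (standard error 0.12, adjusted p = 0.136). MRPL16, which lies near the peptidyl transferase centre, was at 37.6, 37.0 and 41.6 CPM in the control and at 49.8, 48.5 and 41.3 CPM in TFAM-OE (log2 fold change 0.26, adjusted p = 0.169). MRPL51, a mitochondria-specific protein, was at 120, 125 and 139 CPM in the control and at 162, 156 and 136 CPM in TFAM-OE (0.25, adjusted p = 0.175). In all of these, replicate 3 was the TFAM-OE library that reached into the control range. MRPL14 and MRPL51 overlap a gene on the opposite strand (TMEM63B and NCAPD2), and MRPL16 overlaps none.

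MRPL55, counted as bacterial-type, and the mitochondria-specific MRPL41 completed the 5 largest differences of the large subunit. MRPL55 was at 35.6, 45.7 and 39.6 CPM in the control and at 55.7, 52.7 and 41.2 CPM in TFAM-OE, which gave 0.31 (adjusted p = 0.200). MRPL41 was at 84.8, 102 and 112 CPM in the control and at 130, 129 and 97.1 CPM in TFAM-OE, which gave 0.25 (adjusted p = 0.291). MRPL12, the stalk protein, was at 255, 343 and 355 CPM in the control and at 400, 378 and 279 CPM in TFAM-OE. Its log2 fold change was 0.15 with a 95% interval from -0.21 to 0.51, and the estimate changed sign to -0.015 with GC and length offsets. The member of the large subunit with the most negative estimate was MRPL10, a bacterial-type protein to which the stalk proteins bind, at -0.21 (adjusted p = 0.313).

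MRPS30 had the largest difference of all members in either direction. It was at 54.4, 56.2 and 58.6 CPM in the control and at 50.5, 45.5 and 37.0 CPM in TFAM-OE. All TFAM-OE libraries were below all control libraries, with means of 56.4 ± 2.07 CPM and 44.3 ± 6.84 CPM (SD, n = 3 in each). The log2 fold change was -0.35 (standard error 0.12, fold 0.786 with a 95% interval from 0.650 to 0.951) and the adjusted p 0.112. The gene lies on chromosome 5 (44808947 to 44820428, plus strand) and overlaps no other gene there. In the tests on FPKM with limma-trend it passed the threshold (adjusted p = 0.036 with 0.1 added and 0.037 with 1 added), and so it did with GC and length offsets and without TFAM-OE replicate 1 (adjusted p = 0.031). It passed under 4 of 20 alternatives. Over these, its log2 fold change ran from -0.45 without TFAM-OE replicate 1 to -0.23 without TFAM-OE replicate 3.

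In the small subunit the largest positive difference was 0.27, against 0.33 in the large subunit, which has more members. MRPS6, a bacterial-type protein, was at 33.1, 36.3 and 36.9 CPM in the control and at 47.0, 43.7 and 37.2 CPM in TFAM-OE. The groups did not overlap, but TFAM-OE replicate 3 was above the highest control by less than 1 CPM (log2 fold change 0.27, adjusted p = 0.185). MRPS6 overlaps SLC5A3 on the same strand of chromosome 21, so its reads are uncertain. MRPS34, a mitochondria-specific protein, was at 151, 182 and 198 CPM in the control and at 238, 227 and 165 CPM in TFAM-OE (0.25, adjusted p = 0.337). MRPS16 was at 59.6, 65.4 and 69.5 FPKM in the control and at 80.5, 77.0 and 68.5 FPKM in TFAM-OE (0.24 in the fit of counts, adjusted p = 0.245). MRPS21 was at 65.4, 69.9 and 74.6 CPM in the control and at 91.7, 82.5 and 73.9 CPM in TFAM-OE (0.24, adjusted p = 0.196). MRPS16 and MRPS21 are both of bacterial type, and in both the third TFAM-OE library lay among the controls. MRPS12 (0.058) and MRPS24 (0.024), 2 of the most abundant members, had estimates close to 0.

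MRPS18A, MRPS18B and MRPS18C are paralogs that descend from 1 bacterial protein and occupy different places in the ribosome, and MRPS18C alone was counted as bacterial-type here. All of them had negative estimates. MRPS18A was at 43.6, 53.6 and 53.0 CPM in the control and at 53.0, 46.3 and 33.5 CPM in TFAM-OE, a log2 fold change of -0.18 (95% interval from -0.54 to 0.19). MRPS18B was at 117, 118 and 135 CPM and at 123, 107 and 85.1 CPM (-0.23, from -0.53 to 0.071), and MRPS18C at 37.4, 38.9 and 43.7 CPM and at 38.6, 36.0 and 30.7 CPM (-0.19, from -0.46 to 0.076). The groups overlapped in each paralog, and none passed the test (adjusted p between 0.318 and 0.538). MRPS36, which is counted by its symbol but is not a ribosomal protein, had an estimate of 0.048 with an interval from -0.32 to 0.42. The rows of MRPS17 had estimates of 0.021 and 0.033.

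By origin, the 47 bacterial-type members had a median log2 fold change of 0.081, with 32 positive, and the 30 mitochondria-specific members one of 0.018, with 17 positive. When MRPS30 and MRPS18A were counted with the large subunit, where they sit, and MRPS36 was left out, the medians were 0.074 over 50 large-subunit members and 0.021 over 27 small-subunit members. The 20 mitochondria-specific proteins of the large subunit had a median of -0.0026 and the 30 bacterial-type ones a median of 0.11, while the small subunit had medians of 0.025 (10 mitochondria-specific members) and 0.021 (17 of bacterial type). No group of members had a call in either direction.

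The members moved together from library to library. TFAM-OE replicate 3 was the lowest library of its group in 78 of 78 members, and TFAM-OE replicate 1 was the highest of all 6 libraries in 54. Control replicate 3 was the highest control in 67 members, and control replicate 1 was the lowest control in 48. The mean log2 CPM over the large subunit was 5.99, 6.09 and 6.23 in the control replicates and 6.34, 6.23 and 5.92 in the TFAM-OE replicates. Over the small subunit it was 5.97, 6.02 and 6.18 in the control and 6.23, 6.12 and 5.85 in TFAM-OE. Both the highest and the lowest library belonged to the TFAM-OE group. The members' reads made up 0.650% ± 0.0393 of the counts in the control and 0.667% ± 0.0680 in TFAM-OE (SD, n = 3 in each), with 0.591% in TFAM-OE replicate 3 and 0.721% in TFAM-OE replicate 1.

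**Figure D3:**
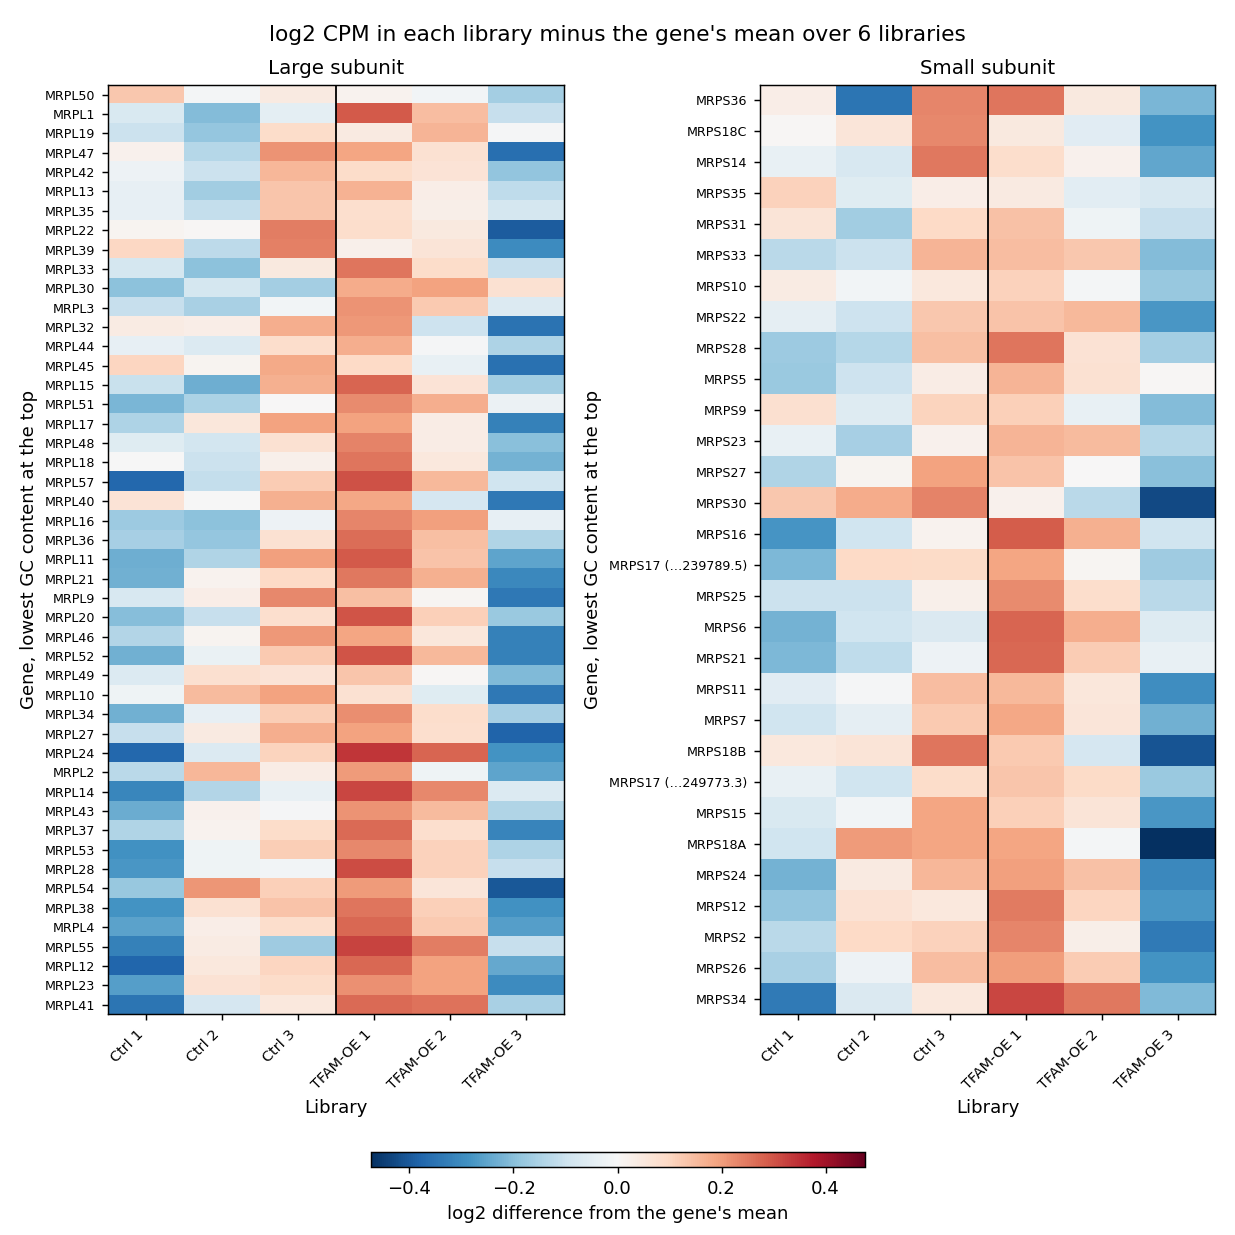
Log2 CPM of each member in each library minus the mean of that member over 6 libraries, as a colour from blue (below the mean) to red (above it), with members ordered by the GC content of their canonical transcript from lowest (top) to highest (bottom) and a black line between control and TFAM-OE libraries. TFAM-OE replicate 1 is the highest library in 54 of 78 rows, and TFAM-OE replicate 3 is below replicates 1 and 2 in each row.

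TFAM-OE replicate 3 was lower than the mean of the other TFAM-OE libraries by a median of 0.34 on the log2 scale (-0.34, from -0.59 to -0.073) over the 78 members, while over all genes with GC content the median was -0.025, with 52.8% below 0. Control replicate 1 was below the mean of the other controls in 67 members (85.9%), with a median of -0.14 on the log2 scale, while over all genes 49.3% were below. Both differences went with the GC content of the transcripts. Across members, Pearson's correlation of GC content with the difference of control replicate 1 was -0.77 (Spearman -0.77) and with that of TFAM-OE replicate 3 it was -0.60 (Spearman -0.60), compared with -0.37 and -0.40 across 16342 genes. These correlations are across genes of the same libraries, which are not independent, and carry no p. In the 26 members of lowest GC content (34.8% to 44.6%) the medians were -0.038 for control replicate 1 and -0.27 for TFAM-OE replicate 3, and in the 26 of highest GC content (52.5% to 66.7%) they were -0.26 and -0.45. The difference between the groups itself was less related to GC content (Pearson 0.22, Spearman 0.21). Across 16342 genes these values were 0.20 and 0.26. With GC and length offsets the log2 fold change fell in MRPL55 (0.31 to 0.16), MRPL41 (0.25 to 0.098) and MRPS34 (0.25 to 0.076). It rose in MRPL30 (0.29 to 0.42) and MRPS16 (0.24 to 0.27). The offsets cover transcript length as well, and the part of GC content alone in these values was not tested.

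**Figure D4:**
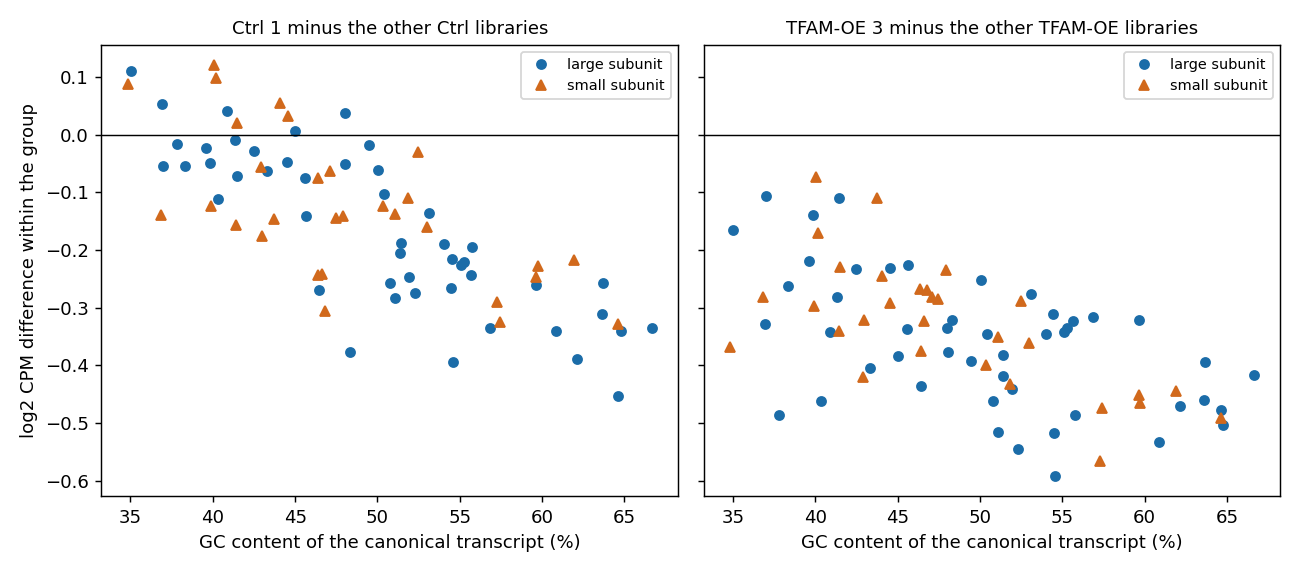
Difference in log2 CPM of control replicate 1 from the mean of the other controls (left) and of TFAM-OE replicate 3 from the mean of the other TFAM-OE libraries (right) for each member, against the GC content of its canonical transcript in percent; circles are the large subunit and triangles the small subunit. The points fall with GC content in both panels, and in the right panel all 78 lie below 0.

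Results that rest on these libraries were computed without them. Without TFAM-OE replicate 3, 11 members passed the threshold as higher (MRPL14, MRPL55, MRPS34, MRPL41, MRPS6, MRPL24, MRPL16, MRPS16, MRPL51, MRPL30 and MRPS21) and 0 as lower, where 8.43% of all genes were called higher and 10.5% lower. The medians were then 0.20 for the large subunit and 0.13 for the small subunit. Without TFAM-OE replicate 1 they were -0.018 and -0.068, and MRPS30 passed as lower, where 4.44% of all genes were called higher and 5.90% lower. Without control replicate 1, 0 members passed, beside 0.535% of all genes higher and 1.50% lower, and the medians were 0.021 and -0.019. Without both control replicate 1 and TFAM-OE replicate 3, only MRPL14 passed (adjusted p = 0.047 in edgeR), 1 of 78 members beside 3.59% of all genes higher and 4.48% lower, and the medians were 0.13 and 0.076. The large-subunit median was thus negative without TFAM-OE replicate 1. The small-subunit median was negative without that library, without TFAM-OE replicate 2 (-0.0098) and without control replicate 1. Without control replicate 2 the small-subunit median was 0.00054.

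The balance between the subunits was less variable than their levels. The mean log2 CPM of the large subunit minus that of the small subunit was 0.019, 0.065 and 0.050 in the control replicates and 0.11, 0.11 and 0.077 in the TFAM-OE replicates, so the groups did not overlap. The means were 0.044 ± 0.024 (SD, n = 3) in the control and 0.098 ± 0.018 (SD, n = 3) in TFAM-OE. The subunits also differed in median GC content, 50.6% in the large and 46.7% in the small subunit. With GC and length offsets, the mean log2 fold change of the large subunit minus that of the small subunit was 0.040, against 0.055 without. The part of GC content in this difference was not tested. When members were placed by structure, MRPS30 and MRPS18A were counted with the large subunit and MRPS36 was left out. The values were then -0.066, -0.023 and -0.037 in the control and 0.00020, -0.011 and -0.053 in TFAM-OE, and the groups overlapped. The separate part of each of these genes in the change was not computed.

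**Figure D5:**
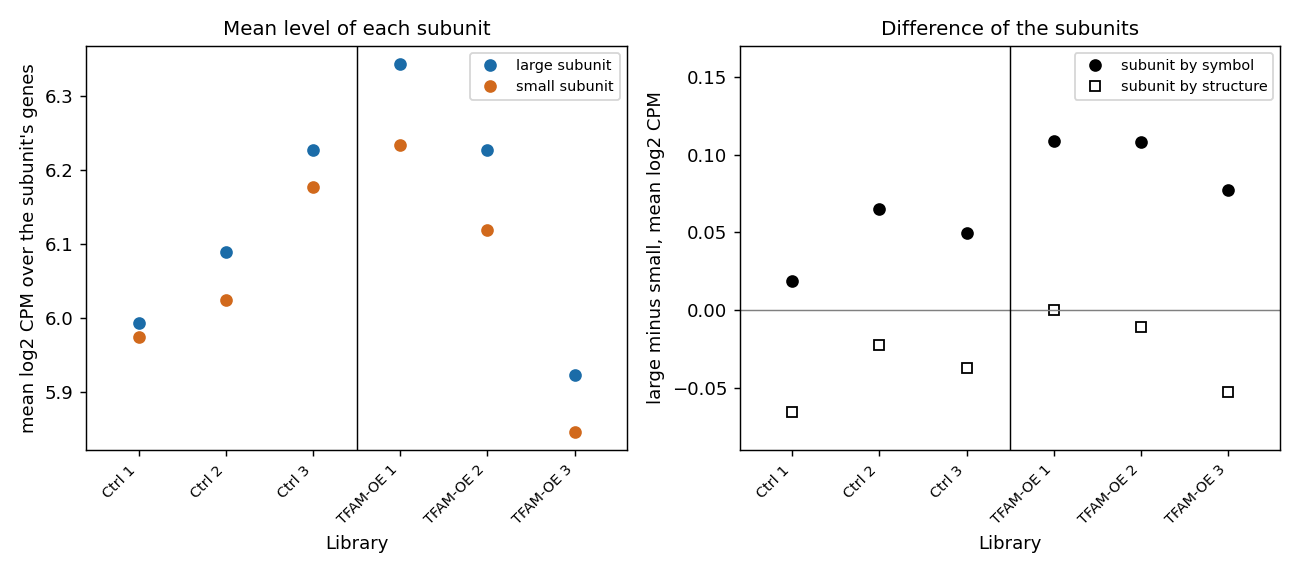
Mean log2 CPM over the members of each subunit in each library (left) and the large-subunit mean minus the small-subunit mean (right), with subunits taken from the gene symbols (filled circles) or from the place of the protein in the ribosome (open squares). The means run from 5.85 to 6.34, with both extremes in the TFAM-OE group, while the differences by symbol stay between 0.019 and 0.11 and those by structure between -0.066 and 0.00020.

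Other families of nuclear genes moved with the members from library to library. The 79 cytosolic ribosomal protein genes tested, which encode the ribosome outside mitochondria, had mean log2 CPM values of 9.56, 9.68 and 9.83 in the control and 9.90, 9.77 and 9.41 in TFAM-OE. None of them passed the test, and their median log2 fold change was 0.013. The 79 nuclear genes of the respiratory chain tested had mean log2 CPM values of 6.39, 6.47 and 6.63 in the control and 6.77, 6.66 and 6.41 in TFAM-OE, with a median log2 fold change of 0.12 and 0 calls. At an unadjusted p below 0.05, 9 of the 79 were higher, close to the 12.2% of all genes, and 0 were lower. In all 3 families TFAM-OE replicate 1 was highest, and replicate 3 was the lowest of its group.

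The RNA partners of these proteins were counted as well. The mitochondrial rRNAs MT-RNR1 (small subunit) and MT-RNR2 (large subunit) are encoded in mitochondrial DNA, and since the libraries were made from polyadenylated RNA their counts cover only the molecules retained in that selection. MT-RNR1 was at 752, 699 and 796 CPM in the control and at 1320, 1228 and 1188 CPM in TFAM-OE. MT-RNR2 was at 4710, 5002 and 5219 CPM in the control and at 7662, 8329 and 8448 CPM in TFAM-OE. Both rose, MT-RNR1 by 0.73 on the log2 scale (standard error 0.099, adjusted p = 0.0029) and MT-RNR2 by 0.71 (standard error 0.11, adjusted p = 0.0047, edgeR), and their groups did not overlap. Within the TFAM-OE group, replicate 3 was the lowest library for MT-RNR1 and the highest for MT-RNR2. Of the 13 mitochondrial mRNAs, which these ribosomes translate, 7 passed as higher and 0 as lower, and the median over all 13 was 0.49 on the log2 scale. The 3 with the smallest p were MT-CO3 (1.06, adjusted p = 0.0021), MT-ATP8 (0.85, adjusted p = 0.0029) and MT-ATP6 (0.81, adjusted p = 0.0034), a subunit of cytochrome c oxidase and 2 of the ATP synthase. The 4 smallest differences were those of MT-ND1 (0.22), MT-ND4 (0.25), MT-ND4L (0.28) and MT-ND2 (0.33), subunits of complex I, and none of these passed (adjusted p between 0.080 and 0.225, edgeR). The largest positive log2 fold change among the 78 protein members was also 0.33.

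The remaining proteins and factors of mitochondrial translation were read from a list. The 6 mitoribosomal proteins whose symbols do not begin with MRP (DAP3, PTCD3, CHCHD1, AURKAIP1, GADD45GIP1 and ICT1) gave 0 calls, with log2 fold changes from -0.18 (ICT1) to 0.24 (AURKAIP1). Of 27 factors of ribosome assembly and rRNA modification, 25 were found by symbol and tested. Of these 25, 1 was called, higher, where 3.48% of all genes tested were called higher and 4.81% lower. That was MRM1, a methyltransferase of the large mitochondrial rRNA, at 17.1, 21.8 and 23.4 CPM in the control and 34.3, 30.4 and 27.5 CPM in TFAM-OE (log2 fold change 0.57, standard error 0.14, adjusted p = 0.041 in edgeR). Its groups did not overlap, as was so for 28% of the 25 factors and 31.7% of all genes tested. The 15 translation factors gave 0 calls, and their smallest adjusted p was 0.101 for the initiation factor MTIF2 (-0.31).

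The factors whose letters were searched in the promoters were measured as well. NRF1 was at 20.3 ± 0.386 CPM in the control and at 22.5 ± 1.06 CPM in TFAM-OE (SD, n = 3 in each), and its log2 fold change was 0.15 (adjusted p = 0.416). YY1 was at 115 ± 4.21 and 114 ± 5.69 CPM (-0.016, adjusted p = 0.932). GABPA, the DNA-binding subunit of an ETS-family complex, was at 19.6 ± 1.69 and 18.2 ± 2.17 CPM (-0.10, adjusted p = 0.661). GABPB1, its partner subunit, was at 43.0, 38.9 and 41.6 CPM in the control and at 35.0, 32.8 and 28.4 CPM in TFAM-OE. The log2 fold change of GABPB1 was -0.36 (adjusted p = 0.078). Of the 9 transcription factors and coactivators of mitochondrial biogenesis in the list, 8 were tested and 0 called, and the coactivator gene PPARGC1A was too low to be tested, with at most 0.02 FPKM. The groups did not overlap for 3 of the 8 (37.5%), beside 31.7% of all genes tested. NRF1 was higher in every TFAM-OE library, and GABPB1 and PPRC1, another coactivator gene (-0.14, adjusted p = 0.357), were lower.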

How the data were processed

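Polyadenylated RNA of A549 cells was sequenced in 3 control and 3 TFAM-OE libraries, grouped by their labels. After trimming, the authors aligned the reads with TopHat2 (GRCh38) and deposited raw counts of the uniquely mapped reads of each gene. The authors also calculated FPKM values from these counts and deposited them with 2 decimals, without pooling replicates. What program, annotation and strand setting were used for counting is not given in the sources used here. No value column was left unused.

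Total counts were 26650854 to 37321956, without molecular identifiers, so depth covers counting error only and the 3 libraries per group set the precision. An exact permutation test of 3 against 3 cannot give a two-sided p below 0.1. Genes kept by filterByExpr (16555) were tested by quasi-likelihood in edgeR (4.0.16, R 4.3.3) after TMM scaling, two-sided, without a block, and p-values were adjusted by Benjamini-Hochberg over all genes tested. All adjusted p-values are from this fit unless another tool is named. Means ± SD refer to TMM-scaled CPM or to deposited FPKM, log2 fold changes are TFAM-OE over control, and medians over members carry no test. When every gene with a read was tested, the fit gave genes of equal abundance 1 shared spread (infinite prior degrees of freedom against 5.98 after the filter), which is why the filter was used.

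The members and gene lists were chosen with earlier results of these data known, and the list of promoter motifs likewise. The members named are the 5 of each subunit with the largest absolute log2 fold change, the 3 of highest and 3 of lowest mean FPKM in each, MRPS18A, MRPS18B, MRPS18C, MRPS30, MRPS36, MRPL12, MRPS12 and MRPL55. MRPL51, MRPL10, MRPS26, MRPL27, MRPL46 and MRPS11 were named after their values were seen, as were GABPB1, MTIF2 and the other list genes that did not pass. Coordinates, lengths and GC content come from GENCODE version 44, which held all 78 members by gene identifier, and promoters from RefSeq. The fits were tested on simulated counts that lacked the deviations shared by genes of a library seen here, so those runs do not cover that pattern. The offsets were tested on counts with a simulated GC trend in a single library. The alternatives were DESeq2 (1.42.0), limma-voom and limma-trend (limma 3.58.1) on FPKM with 0.1 or 1 added, edgeR's exact test, other filters and scalings, GC and length offsets by smooth terms (mgcv 1.9.3), the replicate number as a block, a fold threshold, subunits by structure and each library left out. Leaving out control replicate 1 and TFAM-OE replicate 3 together, and the levels per kilobase of GENCODE transcript, were chosen after seeing the data. Figures were drawn with matplotlib (3.10.9).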

Additional observations from a re-analysis of the deposited data

How the results depend on the processing

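Deviations of same-numbered libraries from their group means had correlations over genes of -0.30, 0.036 and -0.36. For control replicate 1 with TFAM-OE replicate 3 the correlation was 0.34, and for control replicate 3 with TFAM-OE replicate 1 also 0.34. As they also carry differences of single libraries, these correlations cannot show whether the libraries were prepared in pairs. With the replicate block 74 genes were higher and 285 lower, against 576 and 796 without it, 0 members passed, and MT-RNR2 missed the threshold (adjusted p = 0.0503, edgeR). The counts of genes higher and lower were 1034 and 1485 when every gene with a read was tested, and 1542 and 1448 with GC and length offsets. Genes higher numbered 934 in DESeq2. The exact test gave 980 and 1236. With a fold of at least 2 as well, they were 74 and 342, and with each library left out they ran from 66 to 1428 and from 240 to 1786. The causes of these shifts were not tested.

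Members higher past the threshold numbered 0 in the main comparison, 7 with GC and length offsets (MRPL30, MRPL14, MRPL51, MRPL1, MRPL16, MRPS6 and MRPS21), from 0 to 11 with each library left out (11 without TFAM-OE replicate 3, 0 without any other) and 1 without control replicate 1 and TFAM-OE replicate 3. With the offsets 9.31% of all genes were higher and 8.75% lower. Members lower numbered 2 with the offsets (MRPS30 and MRPL10), 1 on FPKM with 0.1 added and 1 with 1 added (MRPS30 in both), and from 0 to 1 with each library left out (MRPS30 without TFAM-OE replicate 1). With the offsets and the replicate block together, 0 members passed in either direction. The median over the large subunit ran from -0.018 to 0.20 and that over the small subunit from -0.068 to 0.13, with negative values for the large subunit without TFAM-OE replicate 1 only and for the small subunit under 6 alternatives. The large-subunit mean difference minus that of the small subunit was 0.055 by symbol, 0.040 by symbol with GC and length offsets, and 0.022 by structure. The median level was 38.9 FPKM, and 58.9 CPM per kilobase of GENCODE transcript. The log2 fold change of MRPL12 turned to -0.015 with the offsets and to -0.012 with the offsets and the block, and that of TFAM passed with the offsets. Of 340 values of single genes under the alternatives, 317 kept both direction and side of the threshold, 20 passed it in addition, 1 no longer passed and 2 changed sign. The median standard error of the members was 0.13 on the log2 scale, which limits the differences that 3 libraries per group could show.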
